A study of Homo sapiens with 6 samples.

Results

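The secreted proteins described here are the antimicrobial and acute-phase products that keratinocytes release at the body surface. The set comprised LCN2, PI3, SLPI, C3, SAA1, SAA2, SERPINA3, RNASE7 and DEFB1, that is, 9 of the 27945 genes of the deposited table, picked by symbol, and each symbol matched 1 row. The members were chosen with earlier results of these data known. Shares of all genes set beside their counts are thus a description and not a test of the set. Transcripts were measured by stranded mRNA sequencing in HaCaT cells, an immortalised human keratinocyte line, in 6 libraries. Wild-type cells and cells labelled MAPK14-null, in which the gene of the p38α kinase was knocked out, received either PBS alone or IL-1α in PBS for 4 h. Each genotype had 1 PBS library and 2 IL-1α libraries. The labels name neither the edit made in MAPK14, nor the number of clones, nor the dose of IL-1α, nor whether replicates were separate cultures. Each p-value thus measures only the spread within the 2 pairs of IL-1α libraries, which may be technical. The PBS groups, with 1 library each, add nothing to it.

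IL-1α is an alarm cytokine that keratinocytes store and release on injury. Its receptor signals through NF-κB and through MAP kinases, among them p38α, and the target genes include effectors that act outside the cell. LCN2 (lipocalin-2) withholds iron from bacteria by binding their siderophores, while RNASE7 and DEFB1 encode antimicrobial peptides and proteins that damage microbial membranes. PI3 (elafin) and SLPI carry WAP domains and restrain neutrophil elastase. SERPINA3 (α1-antichymotrypsin), SAA1 and SAA2 are acute-phase proteins best known from the liver, and C3 is the central component of complement. SAA1 and SAA2 are close paralogs, so reads may have been shared between them and their separate values are uncertain.

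Depth, recovered from the values, ran from 16294046 to 34967699 reads per library, and 1 read on a transcript of 1 kb was worth 0.0286 to 0.0614 RPKM (reads scaled to exon length and to library depth). Keratinocyte identity, though not the line itself, was checked on 8 keratinocyte markers, all of them expressed. Their summed level was 5653 to 6770 RPKM in the wild-type libraries and 3436 to 4019 RPKM in the knockout libraries. Markers of sources that make these proteins in tissue were near absent. Of 5 hepatocyte markers 4 (ALB, APOB, TTR and AHSG) were listed at 0 in every library and the fifth, APOA1, reached 0.109 RPKM. Of 7 leukocyte markers MPO and TYROBP were listed at 0 in every library, PTPRC reached 0.132 RPKM, and only CD68 exceeded 1 RPKM, with a list sum of 5.56 RPKM in the wild-type PBS library, 11.8 and 14.7 RPKM in wild type under IL-1α, 4.71 RPKM in the knockout PBS library and 6.26 and 7.70 RPKM in the knockout under IL-1α. Of 4 endothelial markers PECAM1 was listed at 0 and only CDH5 exceeded 1 RPKM, at 1.45, then 11.4 and 11.8 RPKM in wild type and 2.94, then 10.3 and 1.84 RPKM in the knockout. The sums of 6 fibroblast and 5 melanocyte markers stayed under 5 RPKM in every library. MAPK14 itself stood at 14.4 RPKM in the wild-type PBS library, 13.3 and 14.8 RPKM in wild type under IL-1α, 11.3 RPKM in the knockout PBS library and 10.99 and 7.41 RPKM in the knockout under IL-1α (log2 difference under IL-1α -0.61 ± 0.22 SE, adjusted p = 0.301). A level over the whole gene does not reveal a small edit, so this value does not check the label.

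LCN2, PI3 and SERPINA3 rose with IL-1α in wild-type cells, and LCN2 and SERPINA3 rose in the knockout. These were 3 of 9 in wild type, where 0.201% of the 12925 genes tested passed as higher, and 2 of 9 in the knockout, where 0.0696% did. The call was an adjusted p under 0.05 in limma on log2(RPKM + 0.5). No gene of the set fell by this test, and 0.0155% of all genes did in wild type and 0% in the knockout. At an unadjusted p under 0.05 stood 4 of 9 in wild type (18.1% of all genes) and 5 of 9 in the knockout (3.58%). In wild type both IL-1α libraries lay above the PBS library for 7 of 9 genes (27.5% of all genes) and both below it for SLPI and DEFB1 (54.3%). In the knockout both lay above it for LCN2, PI3, C3, SAA2 and SERPINA3 (27.8%) and both below it for DEFB1 (36.4%). SERPINA3 is in each of these counts of genes that passed or lay above PBS. It reached the 1 RPKM minimum for testing only through IL-1α libraries, where it was higher (0.113 and 0.036 RPKM with PBS). The median log2 change over the 9 genes was 0.80 in wild type, beside -0.14 over all genes tested, and 1.84 in the knockout, beside -0.02. With 1 of the 4 IL-1α libraries left out, a single replicated pair measured the spread. Every call of the set in wild type was lost without either wild-type IL-1α library. In the knockout every call was lost without any 1 of the 4. The cause was not tested. LCN2 in wild type then ran from 2.06 to 2.52 on the log2 scale. The gene also missed the threshold without either knockout IL-1α library, with adjusted p = 0.0656 and 0.0712, which left 2 genes passing in wild type. With voom on recovered reads LCN2 alone passed in each genotype, since SERPINA3 had adjusted p = 0.0635 and 0.0626 and PI3 0.0886 in wild type. LCN2 also missed the threshold in wild type with a pseudocount of 0.1 (adjusted p = 0.0553) and without the variance trend (0.0583), and in the knockout without the trend (0.0978).

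**Figure D1:**
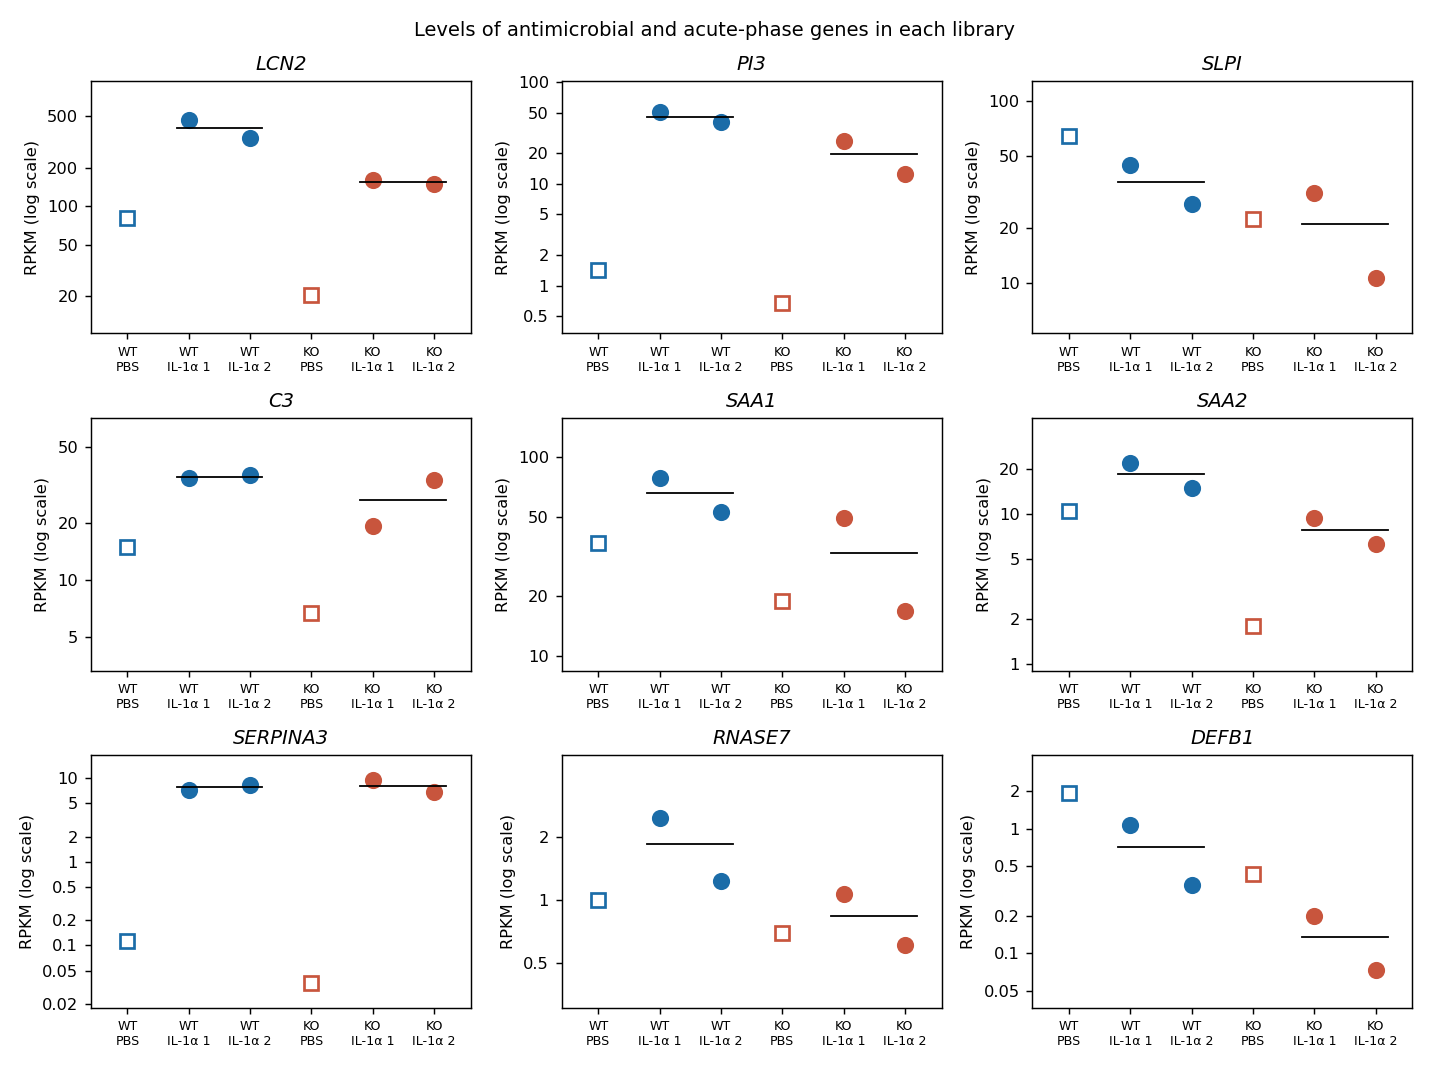
Level of each gene in the 6 libraries in RPKM on a log axis, with wild type in blue, knockout in red, PBS as open squares, IL-1α as filled circles and the mean of each IL-1α pair as a black line. The genotypes overlap under IL-1α for SERPINA3 (6.92 to 9.41 RPKM), whereas both knockout libraries lie below both wild-type libraries for LCN2, PI3, SAA1 and SAA2.

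LCN2 (chromosome 9, 130911709 to 130915734, hg19, plus strand) was the most abundant of the set in 5 of the 6 libraries. In wild type it read 81.5 RPKM with PBS and 471 and 342 RPKM with IL-1α, and in the knockout 20.6 RPKM with PBS and 161 and 150 RPKM with IL-1α. Every IL-1α library was above the PBS library of its genotype, and both knockout IL-1α libraries were below both wild-type ones. The log2 change was 2.29 ± 0.25 (SE, adjusted p = 0.0446) in wild type, a 4.99-fold rise of the mean, and 2.89 ± 0.25 (adjusted p = 0.0387) in the knockout, a 7.55-fold rise. LCN2 made up 38.4% of the summed RPKM of the set in the wild-type PBS library and 65.4% to 66.1% under IL-1α, against 28.4% and then 52.4% to 63.2% in the knockout.

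PI3 (chromosome 20, 43803540 to 43805185) was nearly silent before stimulation in either genotype. It read 1.41 RPKM (13 reads) in the wild-type PBS library, 51.0 and 40.2 RPKM with IL-1α, 0.676 RPKM (13 reads) in the knockout PBS library and 26.2 and 12.6 RPKM with IL-1α. Every IL-1α library exceeded both PBS libraries. In wild type the log2 change was 4.58 ± 0.42 (SE, adjusted p = 0.0289), and the ratio of reads was 32.0 (exact 95% interval 18.6 to 60.4, counting error only). In the knockout it was 3.99 ± 0.42 (adjusted p = 0.0652), with a read ratio of 27.1 (15.7 to 51.3), and the test did not pass. The knockout call passed with a minimum of 5 RPKM (adjusted p = 0.00246) and with the length trend removed (adjusted p = 0.043), and over the settings tried its adjusted p ran from 0.00246 to 1.

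SERPINA3 (chromosome 14, 95078714 to 95090390) went from almost no reads to overlapping levels in the genotypes. The PBS libraries held 3 reads in wild type (0.113 RPKM) and 2 reads in the knockout (0.036 RPKM). With IL-1α it read 7.29 and 8.25 RPKM in wild type and 9.41 and 6.92 RPKM in the knockout, so these groups overlapped. The read ratio was 68.8 (exact 95% interval 23.4 to 335) in wild type and 221 (60.8 to 1826) in the knockout. On the log2 scale the changes were 3.75 ± 0.28 (SE, adjusted p = 0.0134) and 4.00 ± 0.28 (adjusted p = 0.025), values that depend on the pseudocount and ran from 2.98 to 5.88 in wild type and from 3.13 to 7.47 in the knockout over the settings tried. Under IL-1α the knockout differed from wild type by 0.05 ± 0.23 (adjusted p = 0.930, 95% interval -0.50 to 0.61), the smallest such difference of the set.

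Promoter sequence was held for LCN2, SERPINA3 and RNASE7 in the RefSeq table (GRCh38.p14), and it is shown because the first 2 passed in both genotypes and the third in neither. Each line gives the 250 bases before the start site, 5′ to 3′ on the plus strand, at chr9:128149203-128149452, chr14:94612141-94612390 and chr14:21042112-21042361. Capitals mark matches to GGG and CC set 5 bases apart (a wide NF-κB pattern), TGANTCA (AP-1) or TTGCNNAA (C/EBP).
LCN2: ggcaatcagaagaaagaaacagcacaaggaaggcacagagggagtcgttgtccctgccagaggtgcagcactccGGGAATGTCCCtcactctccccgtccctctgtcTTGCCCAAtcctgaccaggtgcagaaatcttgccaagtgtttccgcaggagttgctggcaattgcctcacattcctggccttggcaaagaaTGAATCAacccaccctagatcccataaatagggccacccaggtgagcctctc
SERPINA3: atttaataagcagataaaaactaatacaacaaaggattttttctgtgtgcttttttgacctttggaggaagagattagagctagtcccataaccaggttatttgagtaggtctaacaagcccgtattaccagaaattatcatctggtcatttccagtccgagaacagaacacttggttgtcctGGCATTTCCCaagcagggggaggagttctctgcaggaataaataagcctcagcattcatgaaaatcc
RNASE7: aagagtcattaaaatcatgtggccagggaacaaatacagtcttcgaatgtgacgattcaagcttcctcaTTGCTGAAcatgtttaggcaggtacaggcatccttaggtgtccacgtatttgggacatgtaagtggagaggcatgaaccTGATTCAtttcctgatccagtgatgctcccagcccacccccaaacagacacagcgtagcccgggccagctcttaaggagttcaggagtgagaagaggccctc
Both strands were searched, over these bases and the 50 after the start. LCN2 held GGGAATGTCC from -176 to -167, overlapped on the other strand by a match from -175 to -166, together with the C/EBP pattern from -143 to -136 and the AP-1 pattern from -52 to -46, where -1 is the base before the start. SERPINA3 held 1 NF-κB match, on the other strand, from -67 to -58. RNASE7 held the C/EBP pattern from -181 to -174 and the AP-1 pattern from -102 to -96, and no match to the wide NF-κB pattern. Of 35116 promoters of the same length 58.7% held the wide NF-κB pattern, 10.5% TTGCNNAA and 7.7% TGANTCA. The narrower form, GGG and TTTCC set 2 bases apart (1.9% of promoters), TTCNNNGAA (STAT, 7.7%) and TATAAA (11.5%) had no match in the 3 windows. A match is a run of letters and not evidence of binding.

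C3 (chromosome 19, 6677846 to 6720693), whose fragments tag microbes and call leukocytes, was higher in every IL-1α library than in the PBS library of its genotype, without passing the test. It read 14.9 RPKM in the wild-type PBS library, 34.5 and 35.5 RPKM with IL-1α, 6.65 RPKM in the knockout PBS library and 19.1 and 33.6 RPKM with IL-1α. The log2 change was 1.21 ± 0.33 (SE, adjusted p = 0.17) in wild type and 1.86 ± 0.33 (adjusted p = 0.244) in the knockout. The wild-type pair lay close together (34.96 ± 0.714 RPKM, SD, n = 2) and the knockout pair did not (26.4 ± 10.3 RPKM). Among the 9 genes C3 alone was higher in knockout IL-1α replicate 2 than in replicate 1.

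SAA1 (chromosome 11, 18287772 to 18291523) and SAA2 (chromosome 11, 18266775 to 18270221), apolipoproteins of the acute phase, did not pass in either genotype. SAA1 read 37.0 RPKM in the wild-type PBS library, 78.7 and 53.2 RPKM with IL-1α, 18.9 RPKM in the knockout PBS library and 49.3 and 16.9 RPKM with IL-1α. The knockout pair thus lay on both sides of its PBS library, 2.91-fold apart, and the log2 change there was 0.60 ± 0.59 (SE, adjusted p = 1), or -0.16 without knockout replicate 1. In wild type it was 0.80 ± 0.59 (adjusted p = 0.517). SAA2 read 10.5 RPKM in the wild-type PBS library, 21.9 and 15.05 RPKM with IL-1α, 1.80 RPKM in the knockout PBS library and 9.48 and 6.28 RPKM with IL-1α. Its log2 change was 0.77 ± 0.33 (adjusted p = 0.295) in wild type and 1.84 ± 0.33 (adjusted p = 0.244) in the knockout. The ratio of SAA1 to SAA2 was 3.53 to 3.59 in the 3 wild-type libraries. In the knockout it was 10.5 with PBS and 5.20 and 2.69 with IL-1α.

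SLPI (chromosome 20, 43880880 to 43883205), the other WAP-domain inhibitor, did not follow PI3. It read 64.1 RPKM in the wild-type PBS library, 44.4 and 27.3 RPKM with IL-1α, 22.6 RPKM in the knockout PBS library and 31.4 and 10.6 RPKM with IL-1α. Both wild-type IL-1α libraries were below the PBS library, while the knockout pair lay on both sides of it, 2.95-fold apart. The log2 change was -0.87 ± 0.61 (SE, adjusted p = 0.494) in wild type and -0.29 ± 0.61 (adjusted p = 1) in the knockout, the latter 0.47 without knockout replicate 2. As PI3 was higher with IL-1α, the ratio of PI3 to SLPI moved from 0.0220 to 1.15 and 1.48 in wild type and from 0.0299 to 0.832 and 1.18 in the knockout.

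RNASE7 (chromosome 14, 21510385 to 21512392) and DEFB1 (chromosome 8) were scarce. RNASE7 read 1 RPKM (25 reads) in the wild-type PBS library, 2.47 and 1.23 RPKM (60 and 34 reads) with IL-1α, 0.689 RPKM (36 reads) in the knockout PBS library and 1.07 and 0.607 RPKM (35 and 27 reads) with IL-1α. The log2 change was 0.59 ± 0.43 (SE, adjusted p = 0.512) in wild type and 0.15 ± 0.43 (adjusted p = 1) in the knockout. The replicates differed by 2.01-fold in wild type, against a 1.85-fold change of the mean. DEFB1, a defensin that epithelia make without stimulation, had 15 reads in the wild-type PBS library (1.95 RPKM), 8 and 3 reads with IL-1α (1.07 and 0.353 RPKM), 7 reads in the knockout PBS library (0.436 RPKM) and 2 and 1 reads with IL-1α (0.199 and 0.073 RPKM). Each IL-1α library was below the PBS library of its genotype, and no change passed (-1.08 ± 0.46 in wild type, adjusted p = 0.288, and -0.56 ± 0.46 in the knockout, adjusted p = 1). DEFB1 reached the 1 RPKM minimum only in wild-type libraries.

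**Figure D2:**
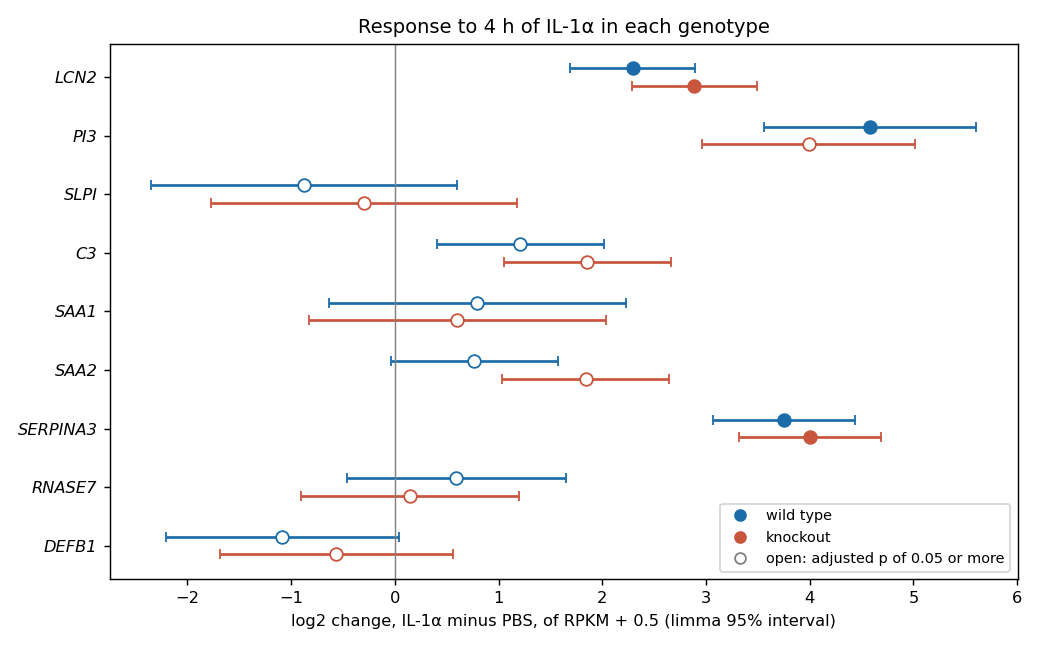
Log2 change from PBS to IL-1α for each gene in wild type (blue) and knockout (red), with limma 95% intervals, filled where the adjusted p is under 0.05. LCN2, PI3 and SERPINA3 lie furthest to the right in both genotypes, and the intervals of SLPI, SAA1, RNASE7 and DEFB1 include 0 in both.

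The interaction compared the size of the IL-1α response in knockout and wild-type cells. In limma 0 of 9 genes passed, 0 had an unadjusted p under 0.05 and voom gave 0 as well, and 0% of all genes passed, with 4.39% at an unadjusted p under 0.05. LCN2 had an interaction of 0.59 ± 0.35 (SE, adjusted p = 0.966, 95% interval -0.26 to 1.44), which leaves responses that differ by up to 1.44 log2 units within the error. SAA2 had 1.07 ± 0.47 (adjusted p = 0.966), PI3 -0.59 ± 0.60 (adjusted p = 0.966) and SERPINA3 0.25 ± 0.40 (adjusted p = 0.966). The remaining interactions ran from -0.44 for RNASE7 to 0.65 for C3. With the length trend removed LCN2 stood at 0.12, SAA2 at 0.50, SLPI at 0.01 (from 0.58), PI3 at -1.18, SAA1 at -0.78 (from -0.19) and RNASE7 at -0.75.

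Without stimulation the knockout library held less of all 9 transcripts than the wild-type library, where 51.2% of all genes tested were lower. LCN2, SLPI, C3 and SAA2, which reached 1 RPKM in both libraries, were at least 2-fold lower in the knockout. PI3 and DEFB1 were too, but they reached that level in the wild-type library alone, where they were higher. Over all genes with 1 RPKM in the higher library, 5.62% were at least 2-fold lower and 4.12% at least 2-fold higher. With 1 library per genotype there is no test, and intervals cover counting error only. The wild-type level was 3.96-fold the knockout level for LCN2 (exact 95% interval 3.58 to 4.38), 5.82-fold for SAA2 (3.96 to 8.72), 2.83-fold for SLPI (2.51 to 3.20) and 2.23-fold for C3 (2.06 to 2.42). It was 4.48-fold for DEFB1 (1.72 to 13.0) and 1.96-fold for SAA1 (1.69 to 2.28). For PI3 (2.09-fold, 0.893 to 4.90) and RNASE7 (1.45-fold, 0.835 to 2.49) the interval included 1, and for SERPINA3, at or under 3 reads in both libraries, no ratio is given. In bulk RNA a change in the share of expressing cells and a change in RNA per cell cannot be told apart.

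Transcript length moved with this comparison. Of the 9 genes 6 are shorter than 1 kb (459 bases for DEFB1 to 836 for LCN2), and the 1656 tested genes of that class had a median log2 difference of -0.51 between the PBS libraries, against 0.23 for the 3597 genes over 4 kb. The same class had a median of -0.53 for IL-1α in wild type and -0.01 for IL-1α in the knockout. With the length trend removed, 4 genes stayed at least 2-fold lower in the knockout PBS library: LCN2 (2.90-fold), SAA2 (3.82-fold), C3 (2.59-fold) and DEFB1 (2.39-fold). Over all genes 322 were then at least 2-fold lower and 586 at least 2-fold higher. DEFB1 still reached 1 RPKM in the wild-type library alone, where it was higher (1.15 against 0.482 RPKM). SLPI then stood at 1.91-fold, SAA1 at 1.30-fold, PI3 at 1.14-fold and RNASE7 at 1.12-fold. SERPINA3, with 3 and 2 reads, turned direction, so 8 of 9 were then lower in the knockout. The share of all genes that were lower at this setting was not computed. In wild type the IL-1α change of SLPI went from -0.87 to -0.25 and that of LCN2 from 2.29 to 2.82. There DEFB1 went from -1.08 to -0.40, SAA1 from 0.80 to 1.43, SAA2 from 0.77 to 1.39 and RNASE7 from 0.59 to 0.94, without a change of call. In the knockout the response of LCN2 went from 2.89 to 2.94 and that of PI3 from 3.99 to 4.04, which then passed. Between genotypes under IL-1α C3 went from -0.46 to -0.61 and SERPINA3 from 0.05 to -0.01, and LCN2 stood at -1.39 (from -1.37).

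**Figure D3:**
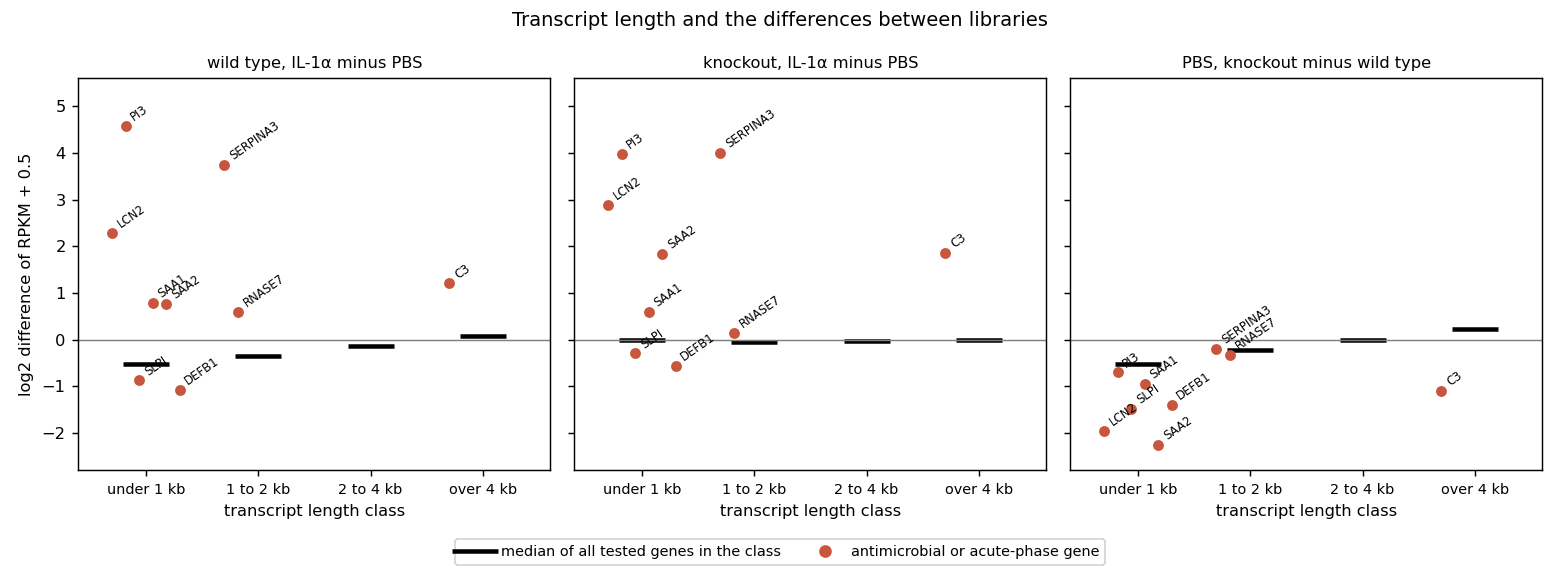
Log2 differences of the 9 genes (red points) beside the median of all tested genes in 4 classes of transcript length (black bars), for IL-1α in wild type, IL-1α in the knockout and knockout minus wild type in PBS. The class medians slope from -0.53 to 0.08 in wild type and from -0.51 to 0.23 between the PBS libraries, and lie near 0 in the knockout.

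Under IL-1α the knockout libraries again held less of most of these transcripts, but no single gene passed. In 7 of 9 genes (all but SLPI and SERPINA3) both knockout libraries were below both wild-type libraries, which held for 16.3% of all genes tested, and in 0 of 9 both were above, against 32.4% of all genes. By mean, 8 of 9 were lower, as were 39% of all genes. DEFB1 is in the counts of 7 and 8, but it passed the 1 RPKM filter only through wild-type libraries, where it was higher. Its reads under IL-1α were 8 and 3 in wild type and 2 and 1 in the knockout. The nearest libraries of the genotypes were close for C3 (33.6 RPKM in the knockout against 34.5 RPKM in wild type). They were also close for RNASE7 (1.07 against 1.23 RPKM) and SAA1 (49.3 against 53.2 RPKM). In limma 0 of 9 passed, where 0.108% of all genes passed as lower and 0.0464% as higher, and 3 (LCN2, PI3 and SAA2) had an unadjusted p under 0.05, as did 14.9% of all genes. The median log2 difference over the 9 was -0.90, beside 0.09 over all genes. LCN2 averaged 406 ± 91.3 RPKM in wild type against 156 ± 7.41 RPKM in the knockout (SD, n = 2 each), a log2 difference of -1.37 ± 0.20 (SE, adjusted p = 0.0949). It passed with voom (adjusted p = 0.0493), with a minimum of 5 RPKM (adjusted p = 0.0234) and with the length trend removed (adjusted p = 0.0367), the adjusted p running from 0.0234 to 0.936 over the settings.

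For the protease inhibitor PI3 the means were 45.6 ± 7.62 and 19.4 ± 9.61 RPKM (-1.29 ± 0.34 SE, adjusted p = 0.211). SAA2 averaged 18.5 ± 4.86 and 7.88 ± 2.26 RPKM (-1.18 ± 0.27, adjusted p = 0.188) and SAA1 65.9 ± 18.0 and 33.1 ± 22.9 RPKM (-1.15 ± 0.48, adjusted p = 0.341). SLPI lay at -0.90 ± 0.50 (adjusted p = 0.436), DEFB1 at -0.87 ± 0.38 (adjusted p = 0.35), RNASE7 at -0.78 ± 0.35 (adjusted p = 0.367) and C3 at -0.46 ± 0.27 (adjusted p = 0.469). In the knockout pair PI3, SLPI, SAA1 and DEFB1 lay at least 2-fold apart, as did 7.66% of all genes, replicate 2 being the lower library for each of the 4. In the wild-type pair RNASE7 and DEFB1 did, as did 2.79% of all genes. For DEFB1 these gaps lay between 2 and 1 reads in the knockout and between 8 and 3 reads in wild type. Replicate 2 was the lower one for 8 of 9 genes in the knockout (47.5% of all genes) and 7 of 9 in wild type (48.8%). The wild-type gap moved with length over all tested genes. Its median log2 value, replicate 2 minus replicate 1, was -0.21 under 1 kb and 0.21 over 4 kb. In the knockout pair these medians were 0 and 0.04. Without knockout replicate 2 the difference was -0.14 for SLPI, -0.39 for SAA1 and -0.78 for PI3. Without knockout replicate 1 it was -0.06 for C3. Without wild-type replicate 1 it was -0.43 for DEFB1, -0.39 for RNASE7 and -0.56 for SLPI. Of the 8 keratinocyte markers 5 were lower in the knockout under IL-1α, led by KRT17 (-2.12), SFN (-1.03), DSG3 (-0.76) and KRT14 (-0.63). The other 3 were higher, TP63 (0.41), ITGB4 (0.22) and KRT5 (0.08), and 0 of the 8 passed. The lower sum of the list thus came from a few abundant genes, and its part in the differences above was not tested.

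**Figure D4:**
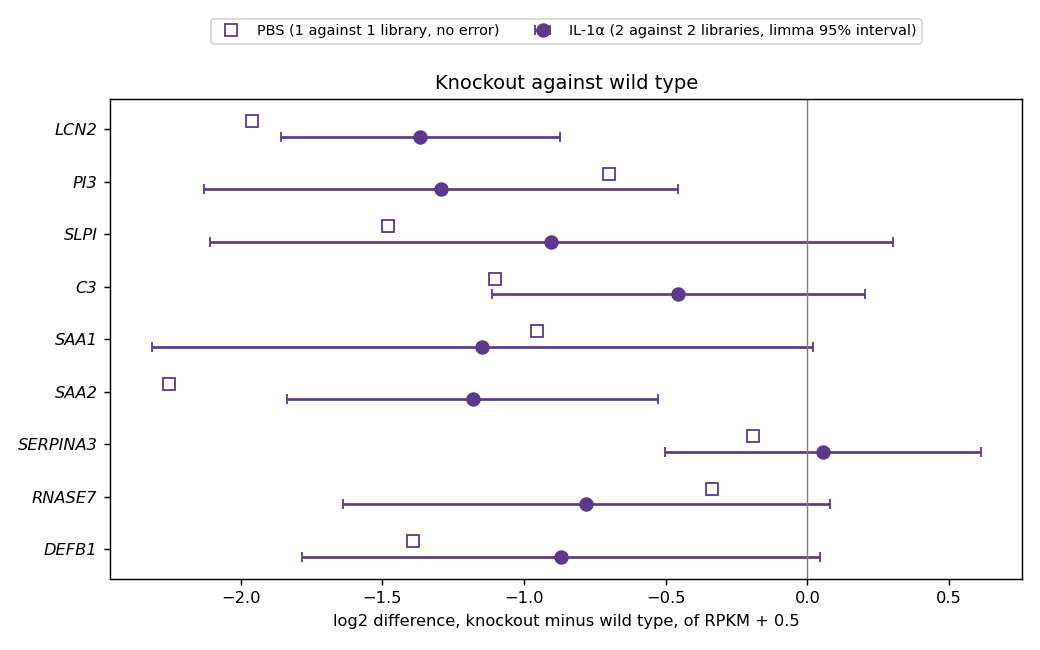
Log2 difference of knockout from wild type for each gene, in PBS (open squares, 1 library against 1) and under IL-1α (circles, 2 against 2, limma 95% interval). All differences are below 0 except that of SERPINA3 under IL-1α (0.05), and LCN2, PI3 and SAA2 have intervals that do not reach 0.

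Of 120 genes on 6 lists of related functions, receptors and upstream regulators, 51 reached 1 RPKM and were tested, and 31 were listed at 0 in every library. At an unadjusted p under 0.05, the level used for some counts below, stood 18.1% of all genes in wild type and 3.58% in the knockout. Of 22 other antimicrobial genes of skin 5 were tested; 0 passed in wild type and 1, S100A9, in the knockout. S100A9, a subunit of calprotectin, read 7.32 RPKM in the wild-type PBS library, 10.2 and 9.72 RPKM with IL-1α, 0 in the knockout PBS library and 3.51 and 4.29 RPKM with IL-1α (log2 change 3.13 ± 0.24 SE, adjusted p = 0.03, a size set by the pseudocount). It did not pass without any 1 of the 4 IL-1α libraries, with voom (adjusted p = 0.0769) or with a pseudocount of 1 (adjusted p = 0.0502). ADM, a vasoactive peptide, stayed between 14.6 and 19.9 RPKM in the 6 libraries. The inducible defensin DEFB4A, named after its values were seen, reached at most 0.138 RPKM, and the cathelicidin gene CAMP was listed at 0.

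Of 12 other WAP-domain and protease inhibitor genes 6 were tested and 0 passed in either genotype, with 2 in wild type and 0 in the knockout at an unadjusted p under 0.05. The cystatin CST3 read 234 RPKM in the wild-type PBS library, 177 and 125 RPKM with IL-1α, 179 RPKM in the knockout PBS library and 154 and 169 RPKM with IL-1α. The ribonuclease inhibitor RNH1 ran from 50.1 to 82.9 RPKM. WFDC2, a WAP-domain gene named after its values were seen, read 62.4, then 44.4 and 28.0 RPKM in wild type, and 27.0, then 39.9 and 24.8 RPKM in the knockout. Like SLPI it was lower in both wild-type IL-1α libraries than in the PBS library, as were 54.3% of all genes tested. WFDC3, another WAP-domain gene named after its values were seen, was higher in both (0.784, then 2.35 and 1.03 RPKM).

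Of 18 other acute-phase genes 3 were tested, and SOD2, a mitochondrial superoxide dismutase, rose in wild type. It went from 20.3 to 94.97 and 133 RPKM (log2 change 2.44 ± 0.27 SE, adjusted p = 0.0446) and in the knockout from 30.7 to 126 and 153 RPKM (2.16 ± 0.27, adjusted p = 0.0928). Without any 1 of the 4 IL-1α libraries the wild-type call was lost, as it was with voom (adjusted p = 0.0536). SAA4, another serum amyloid A gene named after its values were seen, read 1.18, then 2.51 and 1.72 RPKM in wild type and 0.130, then 1.32 and 0.459 RPKM in the knockout.

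Of 28 other complement genes 10 were tested, and in limma 0 passed in either genotype, with 2 in wild type and 1 in the knockout at an unadjusted p under 0.05. CD46 and CD59, which protect the cell from complement, were the most abundant. CD46 read 82.1 RPKM in the wild-type PBS library and 66.7 to 67.4 RPKM with IL-1α, and 51.6 RPKM in the knockout PBS library and 54.5 and 77.2 RPKM with IL-1α. CD59 read 57.1, then 84.2 and 80.2 RPKM in wild type and 45.1, then 66.3 and 60.2 RPKM in the knockout. Each IL-1α library was above its PBS library for CD59, and its changes did not pass (0.52 ± 0.19 SE, adjusted p = 0.229, and 0.48 ± 0.19, adjusted p = 1).

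Of 17 receptors and protease targets 6 were tested and 0 passed in either genotype (2 in each at an unadjusted p under 0.05). The kallikrein protease KLK5 ran from 96.6 to 170 RPKM and SCARB1, a lipoprotein receptor that also binds serum amyloid A, from 8.09 to 19.4 RPKM. Of 23 upstream regulators 21 were tested, with 19 higher in wild type and 16 in the knockout (37% and 47.2% of all genes were) but 0 passing in either (10 and 6 at an unadjusted p under 0.05, beside 18.1% and 3.58% of all genes). NFKB1, an NF-κB subunit, read 21.8, then 50.7 and 58.6 RPKM in wild type and 26.8, then 47.0 and 63.1 RPKM in the knockout (1.30 ± 0.24 SE, adjusted p = 0.112, and 1.01 ± 0.24, adjusted p = 0.608). STAT3, which carries the IL-6 signal, read 37.0, then 46.5 and 57.5 RPKM in wild type and 46.2, then 59.98 and 27.3 RPKM in the knockout. NFKBIZ encodes a nuclear cofactor of NF-κB known to act at the LCN2 promoter. Named after its values were seen, it read 5.95, then 18.4 and 16.8 RPKM in wild type and 4.34, then 12.5 and 14.6 RPKM in the knockout (1.49 ± 0.21 SE, adjusted p = 0.0645, and 1.53 ± 0.21, adjusted p = 0.103). IL1R1, the receptor through which IL-1α signals, was also named after its values were seen. It read 10.6, then 12.1 and 11.5 RPKM in wild type and 3.38, then 2.76 and 5.06 RPKM in the knockout, so every knockout library lay below every wild-type library (under IL-1α -1.53 ± 0.27 SE, adjusted p = 0.134). Under IL-1α alone both knockout libraries lay below both wild-type ones for 16.3% of all genes. Of the 21 regulators tested, 11 were lower in the knockout under IL-1α and 10 higher. The part of IL1R1 in the levels of the 9 secreted-protein genes was not tested. On none of the 6 lists did a gene pass between genotypes under IL-1α or in the interaction by limma.

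The genes whose log2 levels tracked these members most closely over the 6 libraries are given as a description, since 6 libraries in 4 groups make high correlations common. The pool was 259 genes that spanned at least 2 log2 units and reached 5 RPKM. LCN2 was closest to IL1R2, the decoy IL-1 receptor, and to IGFL1 (Pearson r = 0.985 for each), with 10 of the 259 above 0.95. PI3 was closest to the gap junction gene GJB2 (0.993) and the cornified envelope gene SPRR2F (0.985), C3 to the adhesion receptor ICAM1 (0.972) and CXCL8 (0.969), and SERPINA3 to the cytokine CSF2 (0.987) and to TNFAIP2 (0.98). For C3 the likeness included knockout replicate 2, where ICAM1 read 35.2 RPKM against 7.30 RPKM in replicate 1. SAA1 was closest to APOBEC3A_B (0.968) and ZMYND15 (0.946), SAA2 to MIR147B (0.98) and C15orf48 (0.974), and RNASE7 to APOBEC3A_B (0.925) and APOBEC3A (0.911). SLPI was closest to MIR6887 (0.976) and SLURP2 (0.943), and DEFB1 to the ion-transport regulator FXYD3 (0.981) and LYNX1-SLURP2 (0.964). Within the set LCN2 and C3 correlated at 0.938, PI3 and SERPINA3 at 0.957, and SLPI and DEFB1 at 0.879, whereas PI3 and SLPI stood at -0.07.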

How the data were processed

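Transcript levels were measured in 6 HaCaT libraries in 4 groups. Per the submitters' processing notes, base calls were converted with bcl2fastq (2.20.0.422), and STAR and HOMER were used on hg19, without stated versions. Per the file headers, HOMER's analyzeRepeats counted exons with 1 row per gene, and the deposited unit is RPKM, also headed FPKM. Whether counting used strand is not given in the sources used here, so overlapping transcripts on the other strand may add to a value. Depth was recovered as the read number that turned values of 0.02 to 1 RPKM into whole reads (tolerance 0.1 read; 97.8% to 99.8% whole) and served for read counts, intervals and voom. Every gene that reached 1 RPKM in any library was tested as log2(RPKM + 0.5), a scale that understates changes of low genes, in limma (3.58.1, under R 4.3.3), fitted with group means, a variance trend and Benjamini-Hochberg adjustment. Only the 2 IL-1α groups carry residual degrees of freedom (2 in all, 4.2 prior). In 1 simulated data set per comparison the fit recovered most genes given large changes, and more than the nominal share of its calls were false. Genotypes in PBS were compared by ratio (2-fold, at least 1 RPKM). The members and gene lists were chosen with earlier results of these data known. All 9 members passed the filter. From each other list, up to 4 genes passing in any contrast were named, or the 2 most abundant where fewer than 2 passed; 1 such gene is not reported here. Promoters are RefSeq's.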

Additional observations from a re-analysis of the deposited data

How the results depend on the processing

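Of 36 member results (9 genes in 4 tested comparisons), 28 kept their direction under every alternative tried: all 9 in wild type, 6 of 9 in the knockout, 8 of 9 between genotypes under IL-1α and 5 of 9 interactions. The other 8 turned under at least 1 alternative. Without 1 library in turn, the knockout response ran from -0.16 to 1.36 for SAA1 and from -0.10 to 0.40 for RNASE7, both negative without knockout replicate 1, and from -1.05 to 0.47 for SLPI, positive without knockout replicate 2. SERPINA3 between genotypes turned with median-of-ratios rescaling (-0.0552), quantile normalization (-0.0203) and the length trend removed (-0.00797), and ran from -0.15 to 0.26 without 1 library in turn, negative without wild-type or knockout replicate 1. Among interactions, SERPINA3 (-0.0351) and DEFB1 (-0.12) turned with the length trend removed, SAA1 ran from -0.95 to 0.56, positive without wild-type replicate 1 or knockout replicate 2, and SLPI from -0.18 to 1.34, negative without knockout replicate 1. The cause was not tested.

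Counts over all genes moved more. In wild type 28 genes passed, 26 up and 2 down, and 49 without a filter (2 up, 47 down), 162 with a minimum of 5 RPKM (106 up, 56 down), 53 with median-of-ratios rescaling, 11 with voom, 104 with the length trend removed (98 up, 6 down), and 0 to 70 without 1 IL-1α library. In the knockout 9 passed, and 5 with a pseudocount of 1, 65 without a filter (1 up, 64 down), 49 with 5 RPKM (38 up, 11 down), 4 without the variance trend, 2 with voom, 21 with the length trend removed (16 up, 5 down) and 0 without any 1 IL-1α library. Between genotypes under IL-1α 20 passed, and 7 with a pseudocount of 0.1, 0 without a filter, 88 with 5 RPKM, 13 with quantile normalization, 0 without the variance trend, 55 with voom, 39 with the length trend removed and 0 without any 1 IL-1α library. Interactions passed for 0 genes, and for 87 without a filter (37 up, 50 down). Without a filter 0 of the 9 members passed in any comparison. In PBS 1228 genes were 2-fold apart (519 up, 709 down), 908 with the length trend removed (586 up, 322 down), 539 with 5 RPKM and 282 at 4-fold. Median-of-ratios rescaling moved the median of all genes from -0.14 to 0.00 in wild type and from 0.09 to -0.02 between genotypes under IL-1α.

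Replicate numbers 1 and 2 are shared by the IL-1α groups, but the gaps between replicates correlated at 0.0086 across genes, so the numbers were not taken as pairs. A fit with the replicate block gave 81 genes in wild type, 18 in the knockout and 58 between genotypes, and PI3 then passed in the knockout (adjusted p = 0.00525). In PBS the intervals for PI3, RNASE7 and SERPINA3 include a ratio of 1. These intervals cover counting error only, and with 1 library per genotype no difference in PBS was tested for any gene.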
